A study of Mus musculus with 22 samples.

Results

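The genes described here carry out MHC class I antigen presentation in the mouse. They were chosen by symbol, and each of the 10 symbols matched 1 of the 34489 genes in the count table. They are the heavy chain genes H2-K1 and H2-D1, the light chain gene B2m, the peptide transporter genes Tap1 and Tap2, the loading factor gene Tapbp, the immunoproteasome genes Psmb8, Psmb9 and Psmb10, and the regulator gene Nlrc5.

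The study follows primed mouse epiblast stem cells (mEpiSCs) that were cultured with activators of the kinase AMPK and then expanded in a medium for naive embryonic stem cells (mESCs). Bulk RNA was sequenced from 22 cultures, 1 library per line, treatment and time, so no condition had a replicate. The primed group held 1 library of Oct4GIP mEpiSCs and 1 of 129/MSM mEpiSCs. The naive group was a single library of Rex1-GFP mESCs grown in 2iL, which is LIF with inhibitors of MEK and GSK3.

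Oct4GIP is an XX line of the 129/Ola strain with an Oct4-driven eGFP-ires-Puro transgene, so its reporter and its puromycin resistance follow Oct4 activity. Rex1-GFP cells are XX too, are also labelled 129/Ola and carry GFP under Rex1 (Zfp42). The 129/MSM cells are XY and come from a cross of 129X1/SvJ and MSM/Ms mice, and the reads of every line were mapped to the GRCm38 reference, which is the C57BL/6J strain. Primed 129/MSM cells were kept on mouse embryonic fibroblast (MEF) feeders with FGF2 and Activin A. For primed Oct4GIP cells the sources differ, with fibronectin in the methods and MEF in the sample labels, so feeder cells may be part of that library too. The d8 group held 4 whole Oct4GIP cultures at day 8 on MEF feeders, in Basal medium, in 2iL, with AICAR or with AICAR+LIF, and the d16 group held the same 4 conditions at day 16. The d16+2-3p group held 4 Oct4GIP libraries after 2 or 3 passages in 2iL on gelatin, from AICAR or AICAR+LIF cultures. The d16+10p group held 7 libraries after 10 passages. Of these, 2 came from 129/MSM, with AICAR or AICAR+LIF. The other 5 came from Oct4GIP, with metformin+LIF, with AICAR or A769662 alone, or with either of these plus LIF. A group is therefore a stage, and its spread includes differences between treatments, passages and lines.

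The total count per library ranged from 438771 (AICAR+LIF d8) to 5290163 (Basal d16), and the next lowest total was 956357 (AICAR d8). Levels are in CPM, the usual unit of counts relative to the total of the library, with edgeR's TMM scaling factors. A count of 3 was taken as the floor of detection, and it corresponded to 0.566 CPM in Basal d16 and to 5.93 CPM in AICAR+LIF d8. Such floors, and the counting intervals given below, cover counting error only. All 10 genes had counts, from 104 (Nlrc5) to 5399 (B2m) summed over the 22 libraries. Nlrc5 and Psmb9 were above 3 counts in 6 libraries each, and Psmb8 in 8.

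MHC class I molecules display short peptides from proteins made inside the cell to cytotoxic T cells. Proteasomes cut the peptides, the TAP transporter carries them into the endoplasmic reticulum, and tapasin helps to load them onto a heavy chain paired with beta-2 microglobulin. Interferons induce these genes in many cell types, and pluripotent cells are known for low class I levels.

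Of the 10 genes, 7 lie on chromosome 17 within or near the MHC, where Psmb9, Tap1, Psmb8 and Tap2 are neighbours. The gene models of Psmb9 and Tap1 lie on opposite strands and share 212 bases, and their RefSeq start sites are 226 bases apart. Whether reads were counted by strand is not stated, so some reads of either gene may be counted for the other. B2m lies on chromosome 2, and Psmb10 and Nlrc5 on chromosome 8. Reads of related genes can be hard to assign, so the longest protein-coding transcript of each gene was cut into windows of 79 bases, the read length, and searched in the GENCODE M21 transcripts. No window of B2m, Psmb10 or Nlrc5 occurred in another gene. The share of windows found in another gene was 1.04% for H2-K1, 2.97% for Psmb8 (in Gm20496), 4.66% for Tap1 (in Psmb9), 6.52% for H2-D1 (most often in H2-Q1), 8.38% for Tap2 (most often in Gm15821), 10.5% for Psmb9 (in Tap1) and 16.9% for Tapbp (most often in Gm19412). The H2-K1 and H2-D1 transcripts were identical at 90.8% of 1582 aligned bases. The share of counts on protein-coding transcripts was 27.7% for Psmb10, 36.9% for Psmb9, 43.7% for Psmb8 and 48.3% for Tap1. It was 50.3% or more for the other genes. Windows from the other transcripts of a gene were not searched.

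The set of RefSeq (GRCm38.p6) upstream sequences used here held the bases before the start site for 8 of the 10 genes. Tap2 and Nlrc5 were not in that set, so their upstream bases were not read. The 250 bases before the start of B2m (chr2:122147437-122147686, plus strand) and of H2-K1 (chr17:34000348-34000597, minus strand) are printed. These 2 genes were chosen because both chains belong to 1 complex and their ranges at d16+2-3p and d16+10p lay in opposite order. Neither difference passed the test given below. Capitals mark matches, on either strand, to 4 motifs: an interferon-response-like motif, the NF-kappaB motif, the cyclic AMP response element core TGACG and the CCAAT box.

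B2m: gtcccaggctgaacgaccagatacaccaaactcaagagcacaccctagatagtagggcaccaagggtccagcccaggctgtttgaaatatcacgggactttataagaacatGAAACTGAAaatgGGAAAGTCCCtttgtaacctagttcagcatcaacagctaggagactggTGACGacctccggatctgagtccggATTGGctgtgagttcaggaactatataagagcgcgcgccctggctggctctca
H2-K1: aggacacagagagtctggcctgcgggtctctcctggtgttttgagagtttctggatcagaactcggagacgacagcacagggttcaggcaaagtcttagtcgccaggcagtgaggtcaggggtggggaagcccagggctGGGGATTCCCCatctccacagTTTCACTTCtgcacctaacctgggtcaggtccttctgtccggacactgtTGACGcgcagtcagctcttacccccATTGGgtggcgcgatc

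The interferon-response-like motif was searched as GAANNGAAA, which 6.31% of 32851 RefSeq promoters of the same length hold on either strand. H2-K1 and H2-D1 matched it, as 2 of the 8 genes. A second form, GAAANNGAA, was chosen after a longer form ending in 1 more A had been searched and had matched in B2m. It matched in B2m alone of the 8 genes and in 7.13% of the promoters. The NF-kappaB motif matched in 3 of the 8 genes (B2m, H2-K1 and H2-D1) and in 7.25% of the promoters. TGACG matched in 5 of the 8 genes and in 17.8% of the promoters, and CCAAT in 6 of the 8 and in 33.8%. The windows of Psmb9 and Tap1 overlap, and a match describes the letters only. A stretch of 30 bases with the NF-kappaB and interferon-response-like matches in capitals is printed for both heavy chain genes to show how alike they are there, from chr17:34000429-34000458 (H2-K1, minus strand) and chr17:35262923-35262952 (H2-D1, plus strand). The stretches are identical at 29 bases and differ at 1.

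H2-K1: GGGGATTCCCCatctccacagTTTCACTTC
H2-D1: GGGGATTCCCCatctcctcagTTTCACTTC

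The labels were checked against marker lists. The summed level of 8 naive markers was 4618 CPM in naive mESCs, 18 and 33.8 CPM in the primed libraries, 14.5 to 49.4 CPM at d8 and 66.2 to 79.6 CPM at d16. It was 3182 to 3675 CPM at d16+2-3p and 3710 to 5405 CPM at d16+10p. The 3 pluripotency markers Pou5f1, Sox2 and Nanog summed to 1120 CPM in primed Oct4GIP, 574 CPM in primed 129/MSM and 133 to 316 CPM at d8 and d16. In the d8 and d16 cultures Sox2 was the most abundant of these 3, while Pou5f1 lay between 0.755 and 35.6 CPM, against 818 and 461 CPM in the primed libraries. The 8 primed markers summed to 388 CPM in primed Oct4GIP, 2627 CPM in primed 129/MSM, 69.8 CPM in naive mESCs, 55.2 to 140 CPM at d8 and 18.5 to 168 CPM at d16. They summed to 438 to 601 CPM at d16+2-3p, above primed Oct4GIP and mostly from Dnmt3b (419 to 569 CPM), and to 75.6 to 237 CPM at d16+10p.

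The MEF feeders are a further source of RNA in the cultures grown on them. The 10 fibroblast and MEF feeder markers summed to 23.9 CPM in naive mESCs, 64 CPM in primed Oct4GIP and 610 CPM in primed 129/MSM. At d8 they summed to 3355 (Basal), 3441 (2iL), 3351 (AICAR) and 2862 CPM (AICAR+LIF), and at d16 to 5644, 50210, 17207 and 19196 CPM in that order. They summed to 106 and 112 CPM after 2 passages, 24.7 and 19.7 CPM after 3 passages, and 23 to 28.2 CPM after 10 passages. Col1a1 was the most abundant of them in each d8 and d16 library but 2iL d16, where Col3a1 was, at 17427 CPM. All 10 were detected in each d8 and d16 library, while Lum was at 0 in primed Oct4GIP, and Col3a1, Dcn and Lum were at 0 in naive mESCs. The list, called feeder markers below, does not tell MEF feeders from other cells of a culture that express these genes. Fibroblasts express class I genes too. In bulk samples a change in the number of cells of a type and a change in RNA per cell cannot be told apart.

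B2m encodes the light chain of every class I molecule. Its level was 43.8 CPM in primed Oct4GIP, 93.8 CPM in primed 129/MSM and 23 CPM in naive mESCs. At d8 it was 44.9 (Basal), 62.2 (2iL), 55.9 (AICAR) and 69.2 CPM (AICAR+LIF), and at d16 it was 300, 606, 144 and 178 CPM in the same order. Each d16 library was above each library of the other groups. At d16+2-3p the levels were 16.6 and 23.2 CPM after 2 passages (AICAR, AICAR+LIF) and 29.8 and 16.5 CPM after 3 passages. At d16+10p they ran from 10.6 to 16.1 CPM with a median of 13.9 CPM, and each of these 7 libraries was below the naive library and below each d16+2-3p library.

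H2-K1 encodes a classical heavy chain that binds the peptide. Its level was 52.6 CPM in primed Oct4GIP, 69.2 CPM in primed 129/MSM and 20.5 CPM in naive mESCs. At d8 it was 25.3 (Basal), 20.7 (2iL), 5.68 (AICAR) and 19.8 CPM (AICAR+LIF), and at d16 it was 99.8, 126, 10.6 and 14.7 CPM. The d16 group was thus split, with the Basal and 2iL cultures above both primed libraries and the AICAR and AICAR+LIF cultures below them. At d16+2-3p H2-K1 was at 5.33, 8.37, 7.99 and 5.62 CPM, and at d16+10p it ran from 8.63 to 16.5 CPM (median 11.8). The 7 later libraries were all above the 4 earlier ones, the opposite of the order for B2m.

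H2-D1, the second classical heavy chain gene, was at 44.5 CPM in primed Oct4GIP, 59.4 CPM in primed 129/MSM and 10.9 CPM in naive mESCs. At d8 it was at 54.6 (Basal), 53.1 (2iL), 26.5 (AICAR) and 39.5 CPM (AICAR+LIF), and at d16 at 162, 237, 22.5 and 35.4 CPM. The same split by AICAR was present at d16. At d16+2-3p H2-D1 was at 11.8, 11, 9.44 and 10.5 CPM, and at d16+10p it ran from 6.03 to 30.6 CPM (median 14.5), a range that includes the earlier passages and the naive library.

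**Figure D1:**
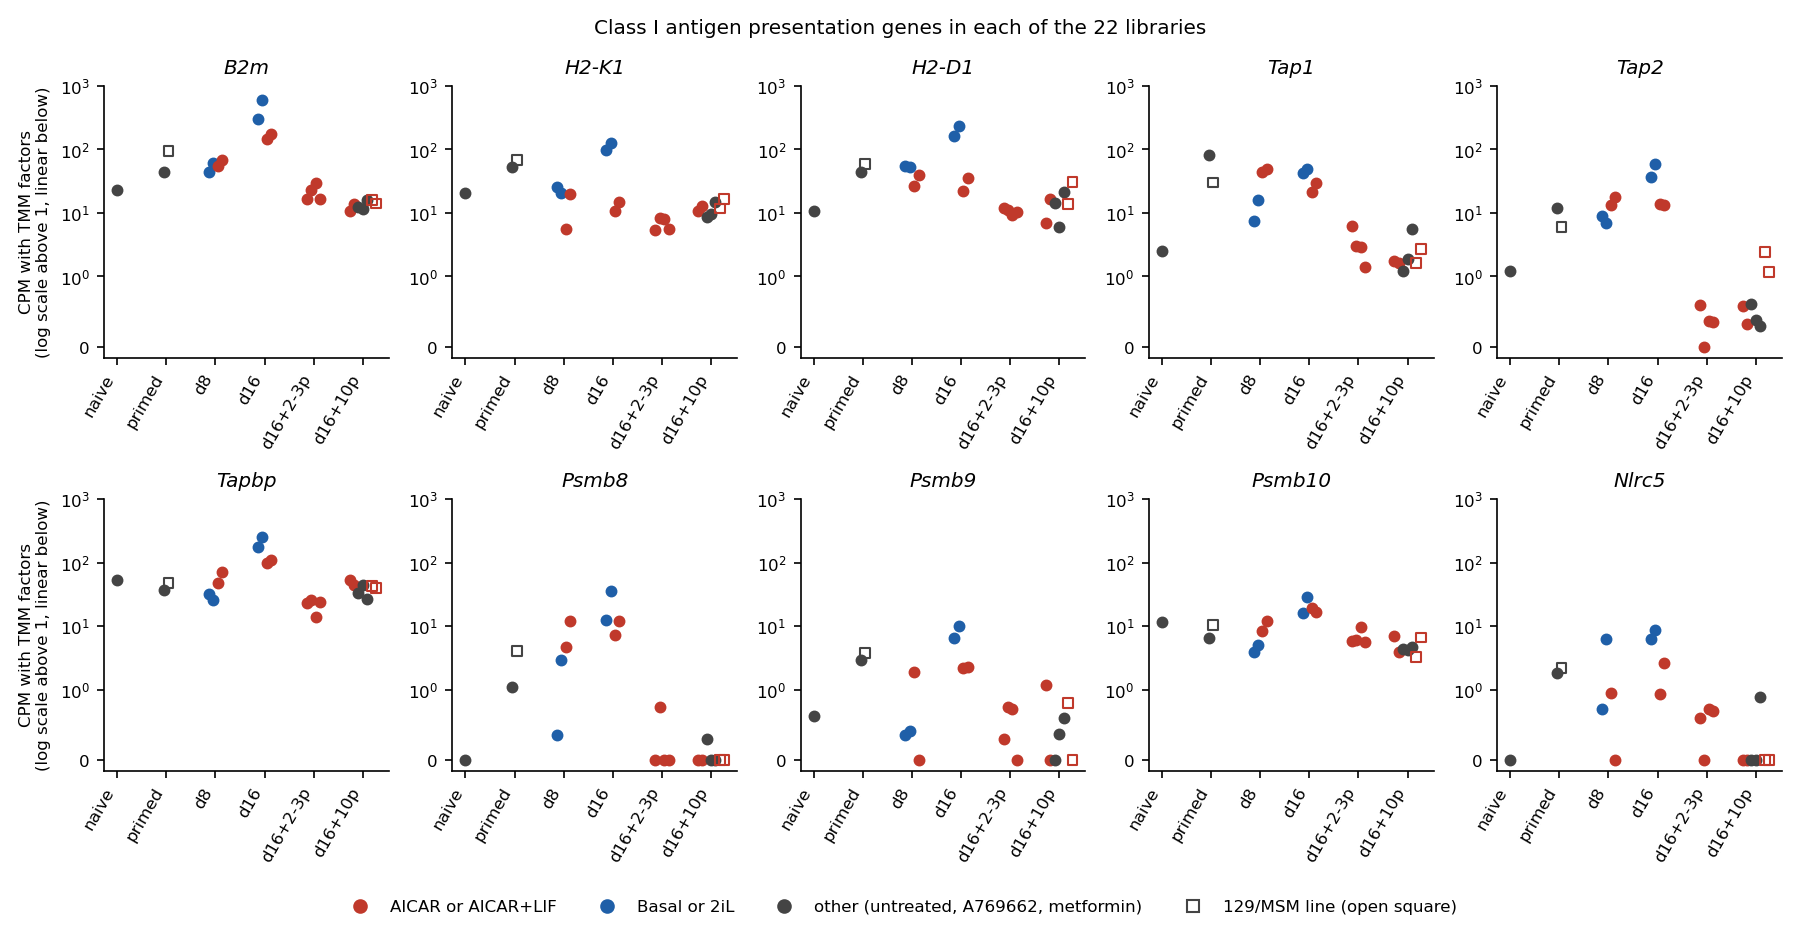
Level of each of the 10 genes (CPM with TMM factors, log scale above 1 CPM and linear below) in the 22 libraries by stage, 1 point per library, with colours for treatment and open squares for the 129/MSM line. B2m lies between 144 and 606 CPM in the 4 d16 libraries and at 29.8 CPM or less in all libraries expanded in 2iL.

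Tap1 and Tap2 together encode the peptide transporter. Tap1 was at 80.9 CPM in primed Oct4GIP, 30.3 CPM in primed 129/MSM and 2.48 CPM in naive mESCs. At d8 it was at 7.6 (Basal), 15.8 (2iL), 43.6 (AICAR) and 49.4 CPM (AICAR+LIF), and at d16 at 42.6, 49.7, 21.5 and 30.1 CPM. The cultures with AICAR were thus the higher pair at d8 and the lower pair at d16. At d16+2-3p Tap1 was at 6.22, 3.04, 2.9 and 1.41 CPM, and at d16+10p it ran from 1.23 to 5.66 CPM (median 1.77). These 11 libraries were all below the d8, d16 and primed ones.

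Tap2 was at 12.1 CPM in primed Oct4GIP, 6 CPM in primed 129/MSM and 1.24 CPM in naive mESCs. Its d8 levels were 9.05, 7.05, 13.3 and 17.8 CPM (Basal, 2iL, AICAR, AICAR+LIF), and at d16 at 37.5, 59.4, 14 and 13.2 CPM. The d8 and d16 ranges overlapped through the AICAR cultures. At d16+2-3p Tap2 had at most 2 counts in a library (0 to 0.592 CPM), and at d16+10p it ran from 0.298 to 2.45 CPM. The highest of these, 2.45 and 1.18 CPM, were the 129/MSM libraries.

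Tapbp encodes tapasin, which holds the empty heavy chain at the transporter. It was at 36.8 CPM in primed Oct4GIP, 48.6 CPM in primed 129/MSM and 53.1 CPM in naive mESCs. Its d8 levels were 31.8, 25.7, 48.3 and 71.2 CPM, and at d16 at 175, 256, 100 and 110 CPM (Basal, 2iL, AICAR, AICAR+LIF). Tapbp was the 1 gene of the 10, besides Psmb10, whose naive level lay above both primed levels. At d16+2-3p it was at 23.4, 25.5, 13.8 and 23.9 CPM, and at d16+10p at 26.5 to 54.1 CPM (median 42.9), so the later passages were above the earlier ones and overlapped the primed and naive levels.

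Psmb8, Psmb9 and Psmb10 encode the catalytic subunits that replace the constitutive ones in the immunoproteasome. Psmb8 was at 1.1 CPM in primed Oct4GIP, 4.11 CPM in primed 129/MSM, at 0.362, 2.9, 4.73 and 11.9 CPM at d8 and at 12.4, 35.3, 7.18 and 12 CPM at d16. It had 0 counts in naive mESCs, 2 counts over the 4 d16+2-3p libraries and 1 count over the 7 d16+10p libraries. Psmb9 was at 2.94 and 3.79 CPM in the primed libraries and from 2.18 to 10 CPM at d16, and had at most 2 counts in each naive, d8, d16+2-3p and d16+10p library. Psmb10 was never at the floor. It was at 6.62 and 10.4 CPM in the primed libraries, 11.5 CPM in naive mESCs, 3.98 to 11.9 CPM at d8, 16.2 to 28.9 CPM at d16, 5.62 to 9.8 CPM at d16+2-3p and 3.27 to 7.06 CPM at d16+10p. Its d16 range lay above all other libraries.

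Nlrc5 encodes a transactivator of class I genes and was the gene with the fewest counts. It was at 1.84 and 2.21 CPM in the primed libraries and at 6.22 (Basal), 8.83 (2iL), 0.936 (AICAR) and 2.63 CPM (AICAR+LIF) at d16. At d8 it had 15 counts in 2iL (6.22 CPM) and at most 2 in the others, of which AICAR+LIF had 0. It had 0 counts in naive mESCs and in 6 of the 7 d16+10p libraries, and at most 2 counts in each d16+2-3p library. At these depths the levels of the expanded and naive cells were at or under the floor.

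The stages were compared in order with edgeR's quasi-likelihood test in 1 model of all libraries, with Benjamini-Hochberg adjustment over 18739 genes at 0.05. From primed mEpiSCs to the d8 cultures, 0 of the 10 genes passed, where 27.7% of all genes tested passed in either direction. At an unadjusted p under 0.05 the count was 2, against 38.8% of all genes, by DESeq2 it was 0 and by limma voom 1 (Tap1, lower). H2-K1 was lower in each of the 4 d8 libraries than in either primed library (log2 fold change -1.72, SE 0.65, adjusted p 0.052). H2-K1 passed as lower without normalization factors and without a filter on low counts. Psmb9 had 4 counts over the d8 group and 20 over the primed group, a ratio of 5.72 with a 95% counting interval of 1.92 to 23, and it passed when AICAR d8 was left out, which made the count 1. The other 8 genes had overlapping ranges. Between these groups the feeder marker sum went from 64 and 610 CPM (primed) to a range of 2862 to 3441 CPM (d8), and its part in the values was not tested.

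From d8 to d16, 7 of the 10 genes passed, all higher at d16, against 14.6% of all genes tested that passed as higher and 11.7% as lower. B2m rose by a log2 fold change of 2.42 (SE 0.36, adjusted p 8.7e-05), Tapbp by 1.95 (SE 0.32, adjusted p 2.5e-04) and Psmb10 by 1.62 (SE 0.36, adjusted p 0.0024), each with every d16 library above every d8 library. These 3 passed in each of the 8 fits that left out 1 library. Psmb9 had 73 counts over the d16 group and 4 over the d8 group, a ratio of 9 with a 95% counting interval of 3.37 to 33.9. Psmb9 did not pass without Basal d8, 2iL d8 or 2iL d16, and it was not tested in the fit with treatment as a block. Its level was 1.89 CPM in AICAR d8 and 2.18 CPM in AICAR d16, the nearest values of the 2 groups. H2-K1 (1.77, adjusted p 0.026), Tap2 (1.49, adjusted p 0.037) and Psmb8 (2.13, adjusted p 0.038) also passed, with overlapping ranges. H2-D1, Tap1 and Nlrc5 did not. The d8 and d16 cultures share their 4 treatments, and with treatment as a block 3 of 8 tested genes passed (B2m, Tapbp and Psmb10), while H2-K1, Tap2 and Psmb8 did not. Of the 14026 genes in the blocked fit 2021 passed as higher and 1402 as lower. Without normalization factors 5 of the 10 passed, without Psmb8 and Tap2, and the calls among all genes changed from 2728 higher and 2191 lower to 2336 higher and 2774 lower. The count of 7 depended on single libraries. It was 3 without 2iL d8 or without 2iL d16, 4 without Basal d8 or without AICAR d8, 5 without Basal d16, 7 without AICAR+LIF d8, and 8, with H2-D1 added, without AICAR d16 or without AICAR+LIF d16. Of the 10 feeder markers 8 were higher at d16 and 0 lower, and of the 5 endothelial markers 4 were higher and 0 lower, among them Kdr (2.75, adjusted p 3.0e-04). The part of the cells that express these markers was not tested.

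From d16 to d16+2-3p all 10 genes passed as lower, against 37.9% of all genes tested that passed as lower and 33.2% as higher. The ranges did not overlap for any of the 10, and the share of all genes without overlap was not computed. The log2 fold change was -3.84 for B2m (SE 0.37, adjusted p 2.1e-08), -3.20 for H2-K1 (SE 0.59, adjusted p 7.5e-05) and -3.41 for H2-D1 (SE 0.59, adjusted p 3.4e-05). It was -3.37 for Tap1, -2.89 for Tapbp and -1.55 for Psmb10, with adjusted p of 2.8e-04 or less. The d16+2-3p libraries all come from AICAR or AICAR+LIF cultures, while the d16 group also holds Basal and 2iL, which had the higher H2-K1 and H2-D1 levels. Without Basal d16 and 2iL d16, an alternative chosen after the values were seen, 8 of the 10 genes passed as lower, and H2-K1 (-0.89, adjusted p 0.052) and Nlrc5 (-1.69, adjusted p 0.18) did not. Among all 18383 genes tested there, 6128 passed as lower and 5483 as higher. The log2 fold change was then -2.91 for B2m and -1.43 for H2-D1, so the falls of the heavy chain genes were smaller against the cultures of the same treatments. In the 6 AICAR and AICAR+LIF libraries with treatment as a block, all 8 genes tested passed, H2-K1 with -0.87 (adjusted p 0.033). Of the 15609 genes in the blocked fit 5845 passed as lower and 5776 as higher. For the genes at the floor after expansion, counts were compared directly. Tap2 had 427 counts at d16 and 4 at d16+2-3p, a ratio of 90.7 (95% counting interval 35.2 to 335), and Psmb8 had 209 and 2, a ratio of 88.8 (24.3 to 738). The ratio was 12.4 (5.08 to 39.4) for Psmb9 and 9.21 (4.01 to 26) for Nlrc5. These ratios pool all 4 d16 cultures, and most of the d16 counts came from Basal d16 and 2iL d16. AICAR d16 and AICAR+LIF d16 had 45 and 35 counts of Tap2 and 23 and 32 of Psmb8. They had 7 and 6 counts of Psmb9 and 3 and 7 of Nlrc5. The feeder marker sum was 5644 to 50210 CPM at d16 and 19.7 to 112 CPM at d16+2-3p, with all 10 markers passing as lower, while all 8 naive markers passed as higher. Loss of feeder and other cells and change within cells cannot be told apart here. The 2 libraries after 3 passages, with feeder marker sums of 24.7 and 19.7 CPM, had B2m at 29.8 and 16.5 CPM.

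From d16+2-3p to d16+10p 1 of the 10 genes passed as higher, against 4.75% of all genes tested that passed as higher and 4.61% as lower. It was Tapbp (log2 fold change 0.91, SE 0.29, adjusted p 0.048), higher in 7 of 7 later libraries than in any earlier one. The call held in 1 of 11 fits that left out a library, the fit without metformin+LIF. The count was 0 in the others, which left out AICAR, AICAR+LIF, A769662, A769662+LIF or either 129/MSM library at d16+10p, or any of the 4 d16+2-3p libraries. It was also 0 with Oct4GIP libraries only and with a term for the 129/MSM line, which is in the later group alone. With treatment as a block in 6 Oct4GIP libraries, chosen after the values were seen, Tapbp passed (1.19, adjusted p 0.016) as 1 of 5 genes tested. Of all 13872 genes in the blocked fit 15.7% passed, 1199 as higher and 975 as lower. The feeder marker sum fell over this step too, from 106 and 112 CPM after 2 passages, and Col1a1 passed as lower (-3.33, adjusted p 0.021). B2m and H2-K1 were the other genes whose ranges did not overlap, with log2 fold changes of -0.66 (SE 0.33, adjusted p 0.24) and 0.84 (SE 0.54, adjusted p 0.39). Psmb8, Psmb9 and Nlrc5 were at the floor in both groups, where no change could be detected at this depth.

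From primed mEpiSCs to d16+10p, the start and the end of the protocol, 8 of the 10 genes passed as lower, against 19.9% of all genes tested that passed as lower and 16.7% as higher. Tap1 fell by 4.49 on the log2 scale (SE 0.53, adjusted p 1.8e-06), Tap2 by 3.42 (SE 0.61, adjusted p 1.7e-04), B2m by 2.34 (SE 0.36, adjusted p 3.6e-05) while H2-K1 fell by 2.32 (SE 0.55, adjusted p 0.0024). H2-D1 fell by 1.71 (SE 0.57, adjusted p 0.022). Each of these had no overlap between the groups, for which the share of all genes was not computed. Psmb8 had 16 counts over the 2 primed libraries and 1 over the 7 later ones, a ratio of 51.8 with a 95% counting interval of 8.04 to 2170. The ratio was 9.24 (3.75 to 25.9) for Psmb9 and 12.9 (3.49 to 71.4) for Nlrc5. Tapbp (-0.07, SE 0.35, adjusted p 0.91) and Psmb10 (-0.82, SE 0.37, adjusted p 0.086) did not pass, and their ranges overlapped. B2m, H2-K1, Tap1 and Tap2 passed whichever library of either group was left out. The count was 4 without primed 129/MSM, where H2-D1, Psmb8, Psmb9 and Nlrc5 did not pass, and 6 without primed Oct4GIP, where H2-D1 and Nlrc5 did not. Without normalization factors the median of all genes moved by -0.10 and 8 genes passed as before. The feeder marker sum, 64 and 610 CPM in the primed libraries, was 23 to 28.2 CPM at d16+10p, and its part was not tested.

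**Figure D2:**
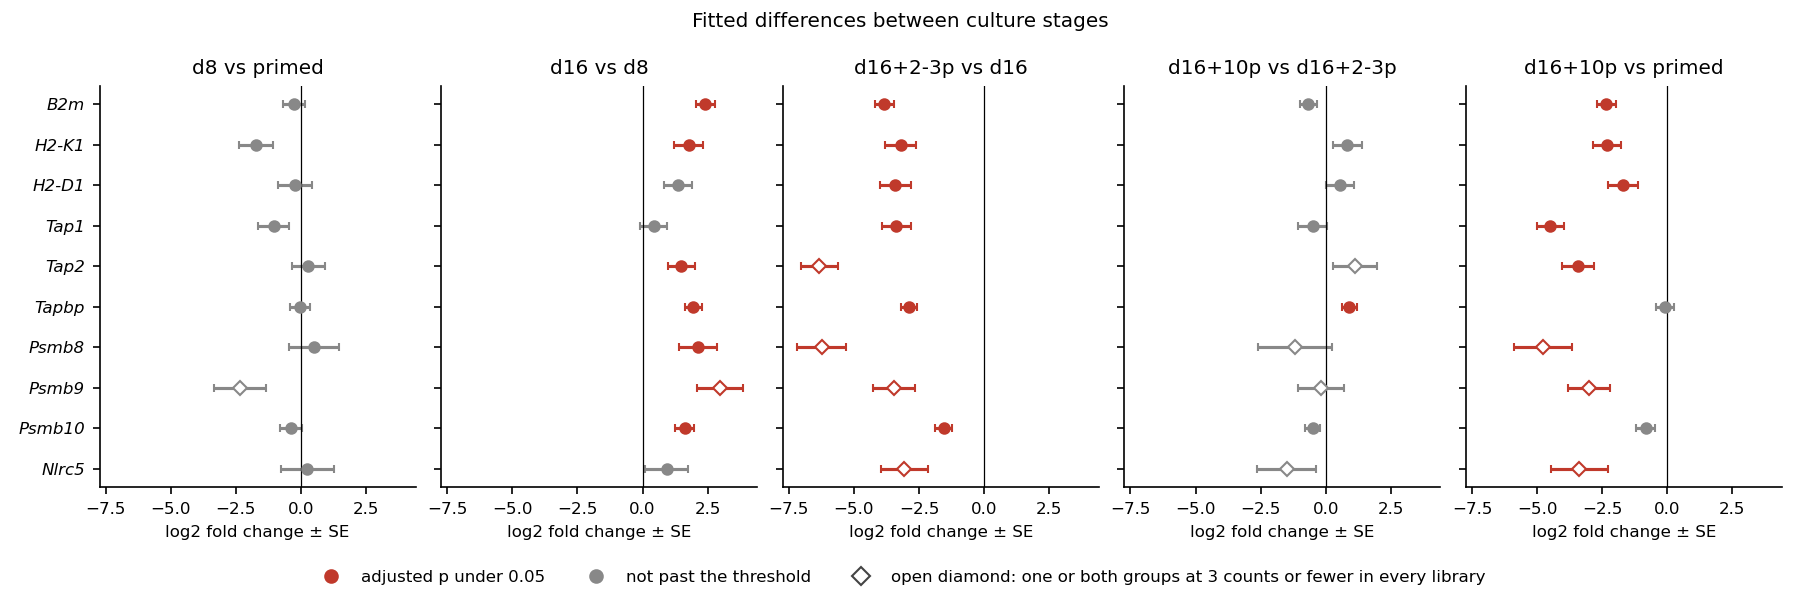
Fitted log2 fold change with its standard error for each gene (vertical axis) in the 5 comparisons between stages, red where the adjusted p is under 0.05, with open diamonds where a group is at 3 counts or fewer in every library. All 10 genes lie below 0 from d16 to d16+2-3p, and 7 pass above 0 from d8 to d16.

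The effect of AICAR before expansion was tested within the 8 libraries of d8 and d16, with AICAR and AICAR+LIF against Basal and 2iL and the day as a covariate. Psmb9 and Nlrc5 did not pass the filter on low counts in this fit. Of the 8 genes tested, 2 passed, both lower with AICAR, against 5.99% of 14026 genes tested that passed as lower and 3.55% as higher. These were the heavy chain genes H2-K1 (log2 fold change -2.41, SE 0.51, adjusted p 0.026) and H2-D1 (-1.86, SE 0.46, adjusted p 0.041). All 4 libraries with AICAR were below the 4 without for both genes. The count was 0 when Basal d8, AICAR d8, AICAR d16 or AICAR+LIF d16 was left out, 1 (H2-K1) without 2iL d8 or Basal d16, and 2 without AICAR+LIF d8 or 2iL d16. In the fits with 0 the calls among all genes fell too, from 1338 to between 245 and 632. With 1 library left out the log2 fold change ran from -2.92 to -1.98 for H2-K1 and from -2.15 to -1.43 for H2-D1. Without normalization factors both still passed, while the calls among all genes changed from 498 higher and 840 lower to 780 higher and 650 lower.

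The plot of the cultures by day was followed by separate contrasts for d8 and d16, which were chosen after the values were seen. At d8, 1 of the 8 genes passed, Tap1, higher with AICAR (log2 fold change 2.12, SE 0.39, adjusted p 0.018), against 3.85% of all genes tested that passed as higher. Tap1 did not pass without Basal d8 (1.67), without AICAR d8 (2.25) or without AICAR+LIF d8 (2.02), where the calls among all genes fell from 1318 to 145, 10 and 0. Tapbp, Psmb8, Psmb10 and Tap2 were also higher in both AICAR libraries than in the 2 others, with adjusted p of 0.054 to 0.2. H2-K1 and H2-D1 were lower in both AICAR libraries, with log2 fold changes of -0.94 (adjusted p 0.27) and -0.62 (adjusted p 0.29). These depended on single libraries, with -1.90 to -0.06 for H2-K1 and -0.91 to -0.28 for H2-D1 when 1 was left out, and H2-K1 in AICAR+LIF d8 (19.8 CPM) was close to 2iL d8 (20.7 CPM). Tapbp passed as well, which made the count 2, without Basal d16, without 2iL d16 and without normalization factors, where the calls among all genes changed from 540 higher and 778 lower to 615 higher and 576 lower. AICAR d8 and AICAR+LIF d8 were the libraries with the lowest totals, so that 5.68 CPM of H2-K1 in AICAR d8 was 6 counts.

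At d16, 3 of the 8 genes passed, all lower with AICAR, against 1.96% of all genes tested that passed as lower. H2-K1 had a log2 fold change of -3.20 (SE 0.40, adjusted p 0.018), H2-D1 of -2.83 (SE 0.32, adjusted p 0.014) and Tap2 of -1.86 (SE 0.32, adjusted p 0.033). B2m (-1.53, adjusted p 0.06), Tapbp (-1.07, adjusted p 0.073), Tap1 (-0.87, adjusted p 0.18) and Psmb8 (-1.33, adjusted p 0.31) were lower in both AICAR libraries without passing, and Psmb10 overlapped. The count was 0 without AICAR d16 or AICAR+LIF d16, where the calls among all genes fell from 378 to 14 and 3. The log2 fold changes stayed between -3.44 and -2.96 for H2-K1 and between -3.19 and -2.51 for H2-D1 whichever library was left out. The count was 2 (without Tap2) when any d8 library was left out, 4 (with B2m) without 2iL d16 and 5 (with B2m and Tapbp) without Basal d16. Without normalization factors the median of all genes moved by 0.11 and the calls among all genes changed from 103 higher and 275 lower to 134 higher and 187 lower, with 3 of the 8 genes passing as before.

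The difference of the AICAR effect between the days was tested in the same fit. By edgeR 0 of the 8 genes passed after adjustment, as did 0.271% of all genes tested in either direction, while all 8 had an unadjusted p under 0.05, against 15.1% of all genes. DESeq2 passed 5 of the 8 and 2.38% of all genes, and limma voom passed 0 of either. The effect at d16 minus the effect at d8 was negative for each of the 8, from -3.67 (Psmb8, SE 1.28, adjusted p 0.24) to -1.61 (Psmb10, SE 0.62, adjusted p 0.28). Tap1 (-2.99, SE 0.51, adjusted p 0.081), Tap2 (-2.88, SE 0.52, adjusted p 0.088) and Tapbp (-2.22, SE 0.41, adjusted p 0.088) had the lowest unadjusted p, between 3.8e-04 and 6.0e-04. The count was 5 without Basal d16 and 2 without 2iL d16.

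Markers of other cells differed between these cultures as well. The 7 leukocyte markers in the table summed to 39.8 (Basal), 5.39 (2iL), 132 (AICAR) and 231 CPM (AICAR+LIF) at d8 and to 29.6, 12, 58.7 and 99.4 CPM at d16. Lyz2 was the most abundant in each AICAR and Basal culture, at 112 CPM in AICAR d8 and 198 CPM in AICAR+LIF d8, and Cd3e was at 0 in each AICAR culture. The 5 endothelial markers summed to 245 CPM in AICAR d16, mostly Cdh5 at 157 CPM, and to 35.4 to 88.1 CPM in the other d16 cultures. Pou5f1 (4.17, adjusted p 0.012), Nanog (3.28, adjusted p 0.042), Eomes (2.69, adjusted p 0.027), T (2.78, adjusted p 0.041) and Dnmt3b (1.24, adjusted p 0.023) were higher with AICAR. Of 2 leukocyte markers tested 1 was higher, Cd68 (1.85, adjusted p 0.045). Cd68 was also at 28.7 CPM in primed Oct4GIP and 26.1 CPM in naive mESCs, where the leukocyte marker Ptprc was at 0. Ptprc was at 2.84 and 1.98 CPM with AICAR at d8 and at 1.81 and 2.49 CPM without. At d16 it was at 0.624 and 1.13 CPM with AICAR and at 1.51 and 0.401 CPM without. Pou5f1 fell short of the threshold in 2 of 15 alternatives, Eomes in 7 of 15, Dnmt3b in 8 of 16 and Nanog, T and Cd68 in 9 of 15 each. Feeder marker sums were alike at d8, while at d16 those of the AICAR cultures, 17207 and 19196 CPM, lay between 5644 CPM (Basal) and 50210 CPM (2iL). Of the 10 feeder markers 2 passed as higher with AICAR, Postn (1.80, adjusted p 0.011) and Pdgfrb (0.84, adjusted p 0.036), which fell short in 2 and 9 of 16 alternatives. Postn was at 704 to 839 CPM with AICAR at d8 and at 146 to 297 CPM without. The part of these cells in the class I values was not tested.

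**Figure D3:**
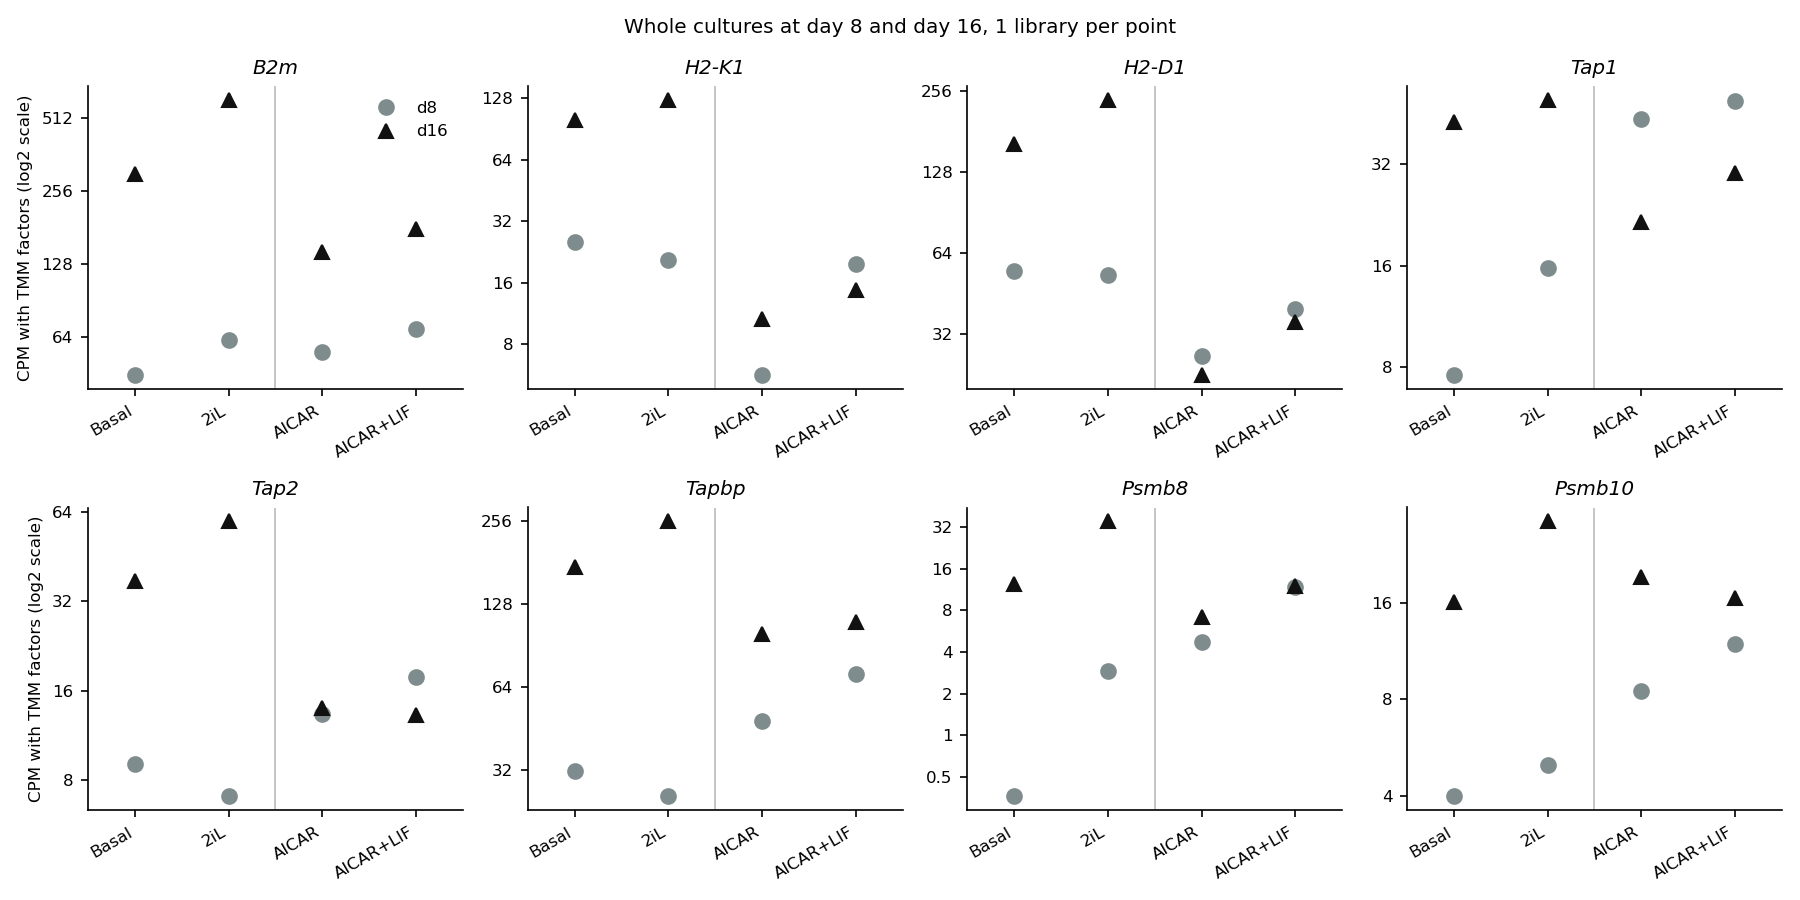
Level of the 8 tested genes (CPM with TMM factors, log2 scale) in the whole cultures by treatment, with circles for d8 and triangles for d16, 1 library per point. H2-K1 and H2-D1 are lower in the AICAR cultures on both days, and Tap1 is at 43.6 and 49.4 CPM with AICAR at d8 but at 21.5 and 30.1 CPM at d16.

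A heavy chain and B2m pair in equal numbers on the cell surface, and the ratio of their counts within a library does not depend on the scaling. The log2 ratio of H2-K1 to B2m (with 0.5 added to each count) was 0.26 in primed Oct4GIP, -0.44 in primed 129/MSM and -0.16 in naive mESCs. At d8 it was -0.82 (Basal), -1.58 (2iL), -3.19 (AICAR) and -1.76 (AICAR+LIF), and at d16 it was -1.58, -2.26, -3.74 and -3.58. It was -1.61, -1.45, -1.87 and -1.53 at d16+2-3p and ran from -0.51 to 0.22 at d16+10p. The d16+2-3p libraries thus had fewer H2-K1 counts per B2m count than the naive and primed libraries, and the 7 libraries at d16+10p overlapped with those. The same ratio for H2-D1 was -1.07 in naive mESCs, -1.64 to -0.48 at d16+2-3p and -0.93 to 1.10 at d16+10p.

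An exact permutation test (two-sided, libraries as units) was run on each of 6 ratio comparisons, with p not adjusted. Those by AICAR and by passage were chosen after the values were seen. Between d16+2-3p and d16+10p the log2 ratio of H2-K1 to B2m rose by 1.45 (exact p 0.003, the smallest that 330 arrangements allow), and by 1.42 among Oct4GIP libraries (exact p 0.0079). All 7 later libraries were above the 4 earlier ones for H2-K1 and below them for B2m. The ratio was bound to separate for that reason, so its p adds nothing to those levels. For H2-D1 the log2 ratio to B2m rose by 0.99 (exact p 0.036) with overlapping ranges, and by 0.83 among Oct4GIP libraries (exact p 0.071). The exact p was also 0.05 or more without A769662 or AICAR+LIF at d16+10p (0.96 each, exact p 0.057), metformin+LIF (0.94, exact p 0.052), AICAR+LIF after 2 passages (0.96, exact p 0.083), or AICAR or AICAR+LIF after 3 passages (0.77 and 1.10, exact p 0.1 and 0.05). In the d8 and d16 cultures the ratio of H2-K1 differed by -1.51 with AICAR (exact p 0.057) and that of H2-D1 by -1.17 (exact p 0.14), where 70 arrangements allow 0.029 at the smallest. These tests exchange libraries between the days. With exchange within each day only, added later, the exact p was 0.056 for both genes, the smallest that 36 arrangements allow. For H2-K1 the difference was -1.95 without AICAR+LIF d8 (exact p 0.029).

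**Figure D4:**
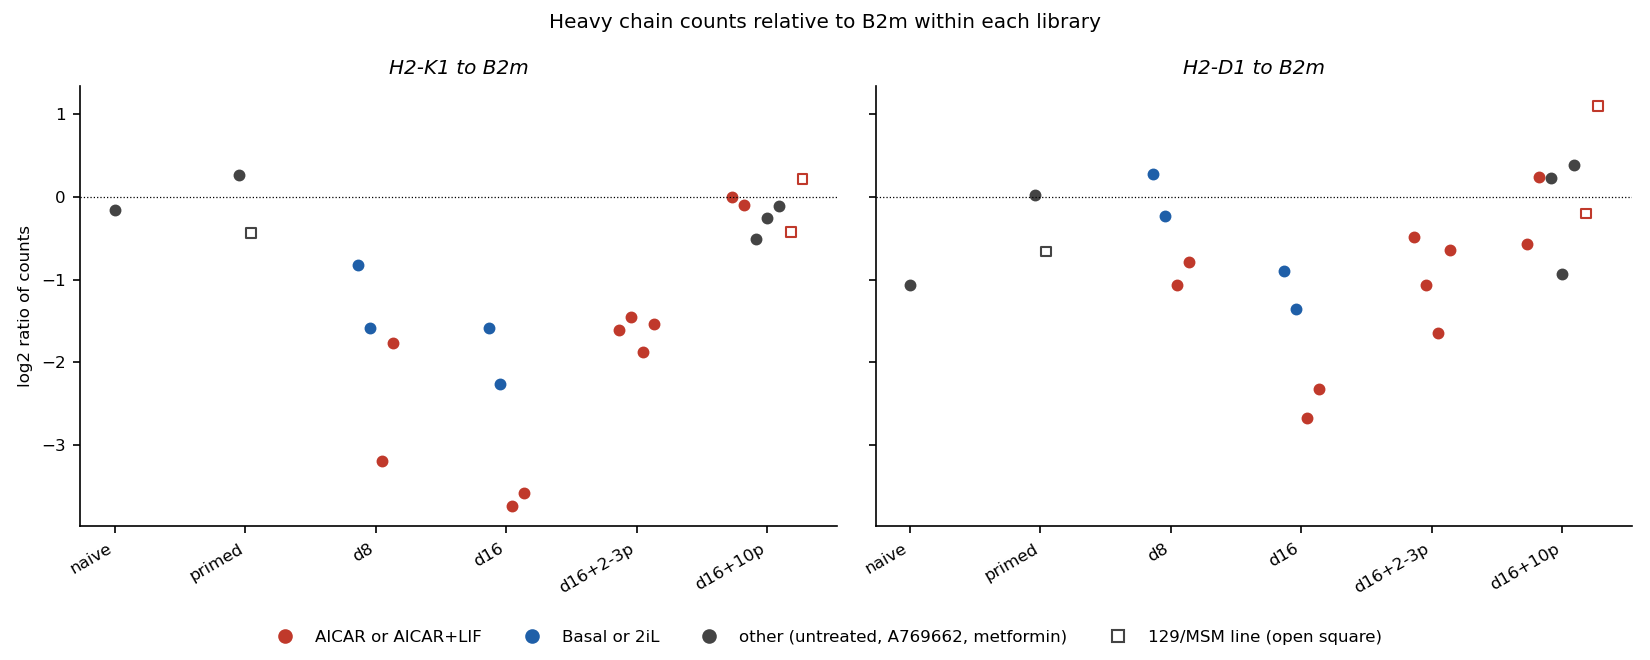
Log2 ratio of H2-K1 and of H2-D1 counts to B2m counts within each library, by stage, with colours for treatment and open squares for the 129/MSM line. For H2-K1 the 4 d16+2-3p libraries lie between -1.87 and -1.45 and the 7 d16+10p libraries between -0.51 and 0.22.

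The strains differ in their H2 haplotype, and the lines were compared for that reason with a term for 129/MSM beside the stage. The lines differ in sex as well, so strain and sex cannot be told apart here. By edgeR 0 of the 10 genes passed, against 3.62% of all genes tested that passed in either direction. The count at an unadjusted p under 0.05 was 0, against 16.5% of all genes, and DESeq2 and limma voom gave 0 each, against 5.36% and 4.31% of all genes. After 10 passages B2m was at 15.9 and 14.1 CPM in the 129/MSM libraries (AICAR, AICAR+LIF) and at 10.6 to 16.1 CPM in the Oct4GIP ones. H2-K1 was at 11.8 and 16.5 CPM against 8.63 to 14.9 CPM, and H2-D1 at 13.9 and 30.6 CPM against 6.03 to 21.1 CPM. Over the primed and d16+10p libraries, the log2 ratio of H2-K1 to B2m differed by -0.10 between 3 129/MSM and 6 Oct4GIP libraries (exact permutation p 0.64). The difference was 0.02 without primed 129/MSM and 0.01 without AICAR 129/MSM. The log2 ratio of H2-D1 to B2m differed by 0.19 (exact permutation p 0.7) and by -0.33 without AICAR+LIF 129/MSM. Both tests exchange libraries between the stages, and each line holds 1 primed library, so the mix of stages differs between the lines. The smallest p of 84 arrangements is 0.012. Whether MSM reads of H2 genes were lost in mapping to the reference was not tested, and the counts hold no allele.

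Across the 22 libraries the genes moved together to different degrees. Pearson's r between the log2 level of a gene and the mean z-score of the other 9 was 0.96 for B2m, 0.91 for Tap2 and Psmb8, 0.87 for H2-D1 and 0.83 for Tap1. It was 0.81 for Psmb9, 0.78 for Nlrc5, 0.76 for Tapbp and Psmb10 and 0.74 for H2-K1. These values describe libraries that share stages and feeders, with no test. The mean z-score of all 10 was highest in 2iL d16 (2.21) and Basal d16 (1.71), 0.55 and 0.80 in the primed libraries and -0.35 in naive mESCs, and it ran from -0.83 to -0.50 in the 11 expanded libraries.

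Likeness to that mean over the 22 libraries was ranked among 11182 genes with a mean log2 CPM of at least 3. Apart from the class I genes, the 10 most like it were Clu (r 0.96), Agpat3 and Prdx5 (0.95), Itm2b, P4ha2, Acadl and Stom (0.94), and Ctsz, Laptm4a and Itm2c (0.93). Each of these 10 had its highest level in 2iL d16 or Basal d16. Clu was at 2020 CPM in 2iL d16 and had a median of 3.49 CPM.

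Other genes of the pathway were counted from fixed lists. From d16 to d16+2-3p, where all 10 class I genes were lower, the 3 constitutive catalytic proteasome genes Psmb5, Psmb6 and Psmb7 all passed as higher, as did 10 of 11 proteasome core genes (0 lower). Of all genes tested 33.2% passed as higher there and 37.9% as lower. Psmb6, which Psmb9 replaces in the immunoproteasome, was at 84.5 to 109 CPM at d16 and 168 to 208 CPM at d16+2-3p (log2 fold change 0.95, SE 0.13, adjusted p 1.5e-06). Of 4 proteasome activator genes 2 passed as higher, Psme3 and Psme4, and 2 as lower, Psme1 and Psme2, which form the interferon-induced activator PA28. Psme2 was at 36.6 to 56.2 CPM at d16 and 11.3 to 18.4 CPM at d16+2-3p. At d16+10p Psme1 and Psme2 were higher again than at d16+2-3p, with Psme2 at 20.2 to 55.5 CPM (2.82-fold, adjusted p 0.0015), while Psme4 was lower (-0.61, adjusted p 0.039), a call that fell short in 10 of 21 alternatives. Of all genes 4.75% passed as higher and 4.61% as lower in that step. The directions of the proteasome genes named were the same with DESeq2 size factors and without normalization factors.

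Among 14 tested other class I heavy chain genes 5 were higher and 5 lower from d16 to d16+2-3p, where 33.2% of all genes passed as higher and 37.9% as lower. H2-Q6 was at 0.312 to 2.63 CPM at d16 and at 16.3 to 20.5 CPM at d16+2-3p, and H2-Bl at 0.401 to 2.07 CPM and at 14.5 to 19.8 CPM. Mr1, which presents metabolites, was at 19.6 to 55.8 CPM at d16 and at 0.38 CPM or less at d16+2-3p. H2-Q6 and H2-Bl, whose windows were not searched in other genes, thus rose where H2-K1 and H2-D1 fell. H2-Q6 was at 8.53 to 16.9 CPM in the primed libraries and at 2.46 to 11 CPM at d16+10p. Of 10 peptide loading and trimming genes 4 were higher and 3 lower, and the peptidase gene Erap1 was at 36.9 to 61 CPM and then at 0.351 to 5.71 CPM (-4.31, SE 0.71, adjusted p 2.0e-05). Of 6 tested MHC class II genes 1 was higher and 4 lower.

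Interferon signalling genes were counted in the same way. From d8 to d16, 15 of 23 tested interferon-stimulated genes passed as higher and 0 as lower, where the shares of all genes were 14.6% and 11.7%. From d16 to d16+2-3p 4 were higher and 16 lower, with shares of 33.2% and 37.9% among all genes. Ifit1 was at 1.51 to 9.79 CPM at d16 and at 0 in all 4 d16+2-3p libraries. Trim25 moved the other way, with 0.624 to 3.01 CPM at d16 and 230 to 260 CPM at d16+2-3p, and made up the larger part of the list's sum of 363 to 473 CPM at d16+2-3p. Of 10 interferon receptor and kinase genes 2 were higher and 8 lower, among them Ifngr1, at 32.4 to 41.5 CPM and then at 1.81 to 3.85 CPM, and Jak2, at 54.9 to 67.4 CPM and then at 6.53 to 7.7 CPM. Of 21 tested class I transcription regulator genes 5 were higher and 12 lower. Irf2 was at 12.8 to 22.1 CPM at d16 and had at most 1 count in each d16+2-3p and d16+10p library, against 4.74 and 9.93 CPM in the primed libraries. From primed mEpiSCs to d16+10p, 4 interferon-stimulated genes were higher and 6 lower, among 23 tested, and of all genes 16.7% were higher and 19.9% lower. Ifit1, lower there, depended on primed 129/MSM, without which its log2 fold change was 1.10.

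**Figure D5:**
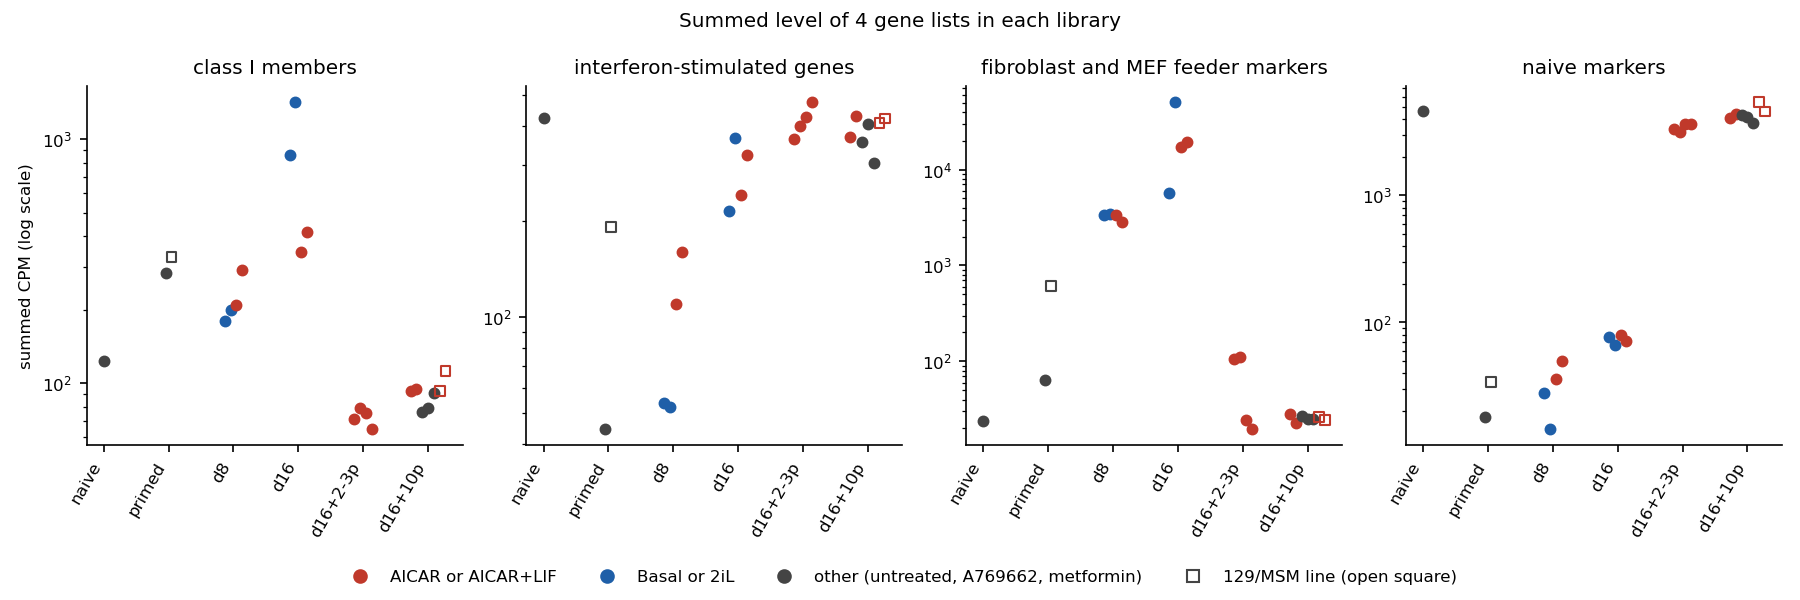
Summed level (CPM, log scale) of the 10 class I genes, the interferon-stimulated genes, the fibroblast and MEF feeder markers and the naive markers in each library, by stage, with colours for treatment and open squares for the 129/MSM line. The feeder markers sum to 5644 to 50210 CPM at d16 and to at most 112 CPM after expansion, and the interferon-stimulated genes sum to 304 to 473 CPM after expansion, mostly Trim25.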

How the data were processed

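Bulk RNA was measured in 22 libraries. The authors made stranded mRNA libraries, mapped single reads with Bowtie2 2.2.5 to GRCm38 transcripts and deposited whole counts per gene without normalization. From these counts, differences were tested with edgeR 4.0.16 in R 4.3.3 (quasi-likelihood test, TMM factors, genes kept by filterByExpr, p adjusted by Benjamini-Hochberg over all tested genes, threshold 0.05). Stages were groups in a model of all 22 libraries. AICAR was tested within the 8 libraries of d8 and d16, and the naive library entered no test. The tests were tested on simulated data. There the libraries of a group were replicates, unlike here, so the outcome does not give the error rate for these stages. Alternatives used DESeq2 1.42.0, limma 3.58.1, other scalings, filters and terms, and libraries left out. Named were the 10 genes, up to 4 genes per list and comparison with the largest change among those past the threshold, and the 10 genes most like the mean z-score. A listed symbol found on several genes was taken from the one with the most counts. The genes and the 15 lists were chosen with earlier results of these data known.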

Additional observations from a re-analysis of the deposited data

Results flagged for a closer look

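In 29 groups of 4 to 7 libraries with a mean of at least 5 counts, 2 held 1 library far from the others, and chance alone does so in about 1 in 20 groups. Tap1 in the metformin+LIF library at d16+10p was at 5.66 CPM, while the other 6 lay between 1.23 and 2.74 CPM, so the gap took up 0.658 of the range. Psmb10 in the AICAR library after 3 passages was at 9.8 CPM, while the other 3 lay between 5.62 and 6.09 CPM, a gap of 0.889 of the range. The cause was not tested.

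For 4 genes both AICAR libraries were above the 2 others at d8 and below them at d16, though of these 4 only Tap1 passed at d8 and only Tap2 at d16. The share of all genes with this pattern was not computed, and the 4 genes were picked by it. The log2 fold change with AICAR at d16 minus that at d8, with an unadjusted p under 0.05 from edgeR's quasi-likelihood test, was -2.99 for Tap1 (SE 0.51, adjusted p 0.081) and -2.88 for Tap2 (SE 0.52, adjusted p 0.088). It was -2.22 for Tapbp (SE 0.41, adjusted p 0.088) and -3.67 for Psmb8 (SE 1.28, adjusted p 0.24). None of these 4 passed after adjustment over all genes by edgeR, and the test was chosen after the values were seen.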

How the results depend on the processing

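Over 92 fold changes of the class I genes, 1594 values were computed under alternatives. None reversed a called direction, 1470 kept the side of the threshold, 79 fell short of it and 45 passed it. Of 3586 values for 207 fold changes of other named genes, 3141 kept their side, 439 fell short and 6 reversed. Usp18 from primed to d8 was 0.11 with Oct4GIP libraries only, where Ifit1 from primed to d16+10p was 1.35. Leaving out 1 library gave -5.08 to 0.13 for Usp18, -5.43 to 1.10 for Ifit1 and -2.04 to 5.41 for Dcn in 129/MSM against Oct4GIP.

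With at least 10 counts required in every library, 3 class I genes were tested in the stage comparisons. Then 3 passed from d8 to d16, where 34.6% of all genes tested passed, and 3 from d16 to d16+2-3p, where 74.9% did. From d16+2-3p to d16+10p 0 passed, against 11.8%, and from primed to d16+10p 2 passed, against 38.7%. With AICAR 1 of 4 class I genes tested passed, against 9.41%. From primed to d8, 1 gene passed with limma voom (Tap1) and 1 without both AICAR cultures of d8 (Tap1). Without a filter 1 passed (H2-K1), as did 1 without normalization factors (H2-K1). From d8 to d16, 3 passed with treatment as a block. From d16+2-3p to d16+10p, 0 passed with DESeq2 size factors, limma voom, no filter, Oct4GIP libraries only or a term for the 129/MSM line. From primed to d16+10p, 4 passed with Oct4GIP libraries only. With AICAR, 4 of 10 passed without a filter, where 10.6% of all genes passed. The count was 0 without a term for the day, where 0.264% of all genes passed. It was also 0 without both AICAR cultures of d8, where 0 of all genes passed. The cause of these changes was not tested.

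Other settings were chosen after seeing the data. With AICAR at d8, 2 of 8 genes passed with DESeq2, 3 of 10 without a filter and 2 of 8 without normalization factors. The shares of all genes were 11.1%, 9.47% and 8.49%. At d16, 5 of 8 passed with DESeq2 and 6 of 10 without a filter, against 5.4% and 7.14% of all genes. For the difference between the days 5 of 8 passed with DESeq2 and 7 of 10 without a filter, against 2.38% and 3.87%. The log2 ratio of H2-D1 to B2m by passage was 0.83 with Oct4GIP libraries only.

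With 1 library left out, the number of genes that passed ranged from 0 to 1 (primed to d8), 3 to 8 (d8 to d16), 0 to 1 (d16+2-3p to d16+10p), 4 to 8 (primed to d16+10p), 0 to 2 (AICAR), 0 to 2 (AICAR at d8), 0 to 5 (AICAR at d16) and 0 to 5 (difference between the days). The ratio to B2m ranged from -0.31 to 0.02 (H2-K1) and -0.33 to 0.56 (H2-D1) by line, from -1.95 to -1.26 (H2-K1) by AICAR and from 0.77 to 1.16 (H2-D1) by passage. Where a group was left with 1 library, that library is assumed to vary like the other groups. Low totals limit the d8 cultures most, where 3 counts were up to 5.93 CPM. The labels do not say which libraries come from the same culture, so treatment served as the block where stages shared it. With such blocks 8 genes passed from d16 to d16+2-3p and 1 from d16+2-3p to d16+10p, both added after seeing the data, as was the fit without Basal d16 and 2iL d16, where 8 passed.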

Other observations

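The naive library entered no comparison. Its summed level over the 10 class I genes was 123 CPM, and its 3 immunoproteasome genes were at 0 (Psmb8), 0.621 (Psmb9) and 11.5 CPM (Psmb10). Of the 26 interferon-stimulated genes 19 were detected in it, with Trim25 at 220 CPM, while Isg15, Ifit1, Ifit3, Gbp3, Rsad2, Usp18 and Mx2 were at 0.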
